A study of Drosophila melanogaster with 12 samples.

Results

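The genes described here are the 46 genes of Drosophila melanogaster whose names in the deposited tables begin with Acp or Sfp followed by a digit, out of 14161 genes in all. They comprise 19 Acp and 27 Sfp genes, which the tables list as 48 transcripts out of 22738. Where a gene had several, its transcript with the most counts was kept. A pair of them, Acp1 and Acp65Aa, are adult cuticle protein genes that share the letters of the name by coincidence, which leaves 44 seminal fluid protein genes. Acp33A and Sfp24Bd, whose current symbols match the rule too, are not analysed here.

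Seminal fluid of the fly is made mainly by the paired accessory glands of the male, with further contributions from the ejaculatory duct and bulb. The gland secretes a mixture of small peptides, protease inhibitors, lectins and larger glycoproteins that are passed to the female with the sperm. In the mated female these proteins raise egg laying, lower receptivity to further mating and help to store sperm. Genes named Acp were mostly found as transcripts of the gland, and those named Sfp were added from proteins recovered after transfer to females, each with the position of its gene on the polytene chromosome map.

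The RNA was that of whole adult flies, from 4 groups with 3 biological replicates each. Control females and control males were both y w; +/+; TM3/+, in which TM3 is a balancer of chromosome 3. The transgenic females, here MSL2 females, were y w; (w+) H83M2-6I/+; +/+ and thus carried a P-element msl2 construct marked with mini-white and no TM3. MSL2 males are labelled as expressing the same construct, but the sources used here do not give their full genotype, nor the age and mating status of flies of any group. MSL2 is the limiting protein of the complex that coats the male X chromosome, and the study asked how gene expression responds when it is made in females. None of the 46 genes is in the X-linked table. By the annotation of a later assembly, 22 lie on 2L, 8 on 2R, 10 on 3L and 6 on 3R.

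The libraries held between 27729411 and 79622278 counts, and a floor of 3 counts in a library lay at 0.0388 to 0.107 CPM (counts scaled to library size, with TMM factors). Intervals and floors cover counting error only. The msl-2 transcript checked the labels, with a mean of 31.6 CPM in control males and 17.4 in control females against 490.2 in MSL2 males and 526 in MSL2 females. Replicates of a group correlated at 0.982 to 0.997 (Pearson, log2 CPM). All 46 genes passed the filter on low counts, which left 13060 genes for the tests, and their high level in males was enough for that.

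Sex peptide, encoded by Acp70A, is the peptide that switches the mated female to egg laying and refusal of males. It stood at 73.9, 58.9 and 85.0 CPM in control males and at 80.7, 52.4 and 86.5 CPM in MSL2 males. The control female libraries held 13, 5 and 10 counts of it and the MSL2 female libraries 6, 5 and 19. Every male library thus lay far above every female one, and the male groups overlapped. The difference between control males and control females was 8.72 ± 0.41 on the log2 scale (SE, edgeR adjusted p = 2.39e-09), and that between MSL2 males and MSL2 females 8.33 ± 0.40 (edgeR adjusted p = 3.28e-09).

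Ovulin, the product of Acp26Aa, stimulates the release of eggs from the ovary. Its transcript reached 448, 344 and 505 CPM in control males and 524, 354 and 549 CPM in MSL2 males, against 72, 45 and 72 counts in the control female libraries. The log2 difference between control males and control females was 8.49 ± 0.49 (edgeR adjusted p = 1.66e-08). Acp26Ab, its immediate neighbour on 2L, was lower per length, with 82.3 ± 21.5 CPM per kb of exon in control males (SD, n = 3) against 451 ± 85.5 for Acp26Aa.

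Acp36DE, a glycoprotein needed for the storage of sperm in the female, gave more counts than any other of the 44 genes. It stood at 1471, 1150.5 and 1724 CPM in control males and at 1886, 1204 and 1869 CPM in MSL2 males. The second library was the lowest of each male group. This gene alone took 19.9% of the summed CPM of the 44 genes in control males. Acp29AB, a lectin gene that also acts in sperm storage, was far less abundant, at 32.2, 25.7 and 36.2 CPM in control males and 35.7, 28.0 and 39.8 CPM in MSL2 males.

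Several members encode inhibitors of proteases. Acp62F, a trypsin inhibitor, stood at 439, 365 and 463 CPM in control males and 486, 352 and 528 CPM in MSL2 males. The serpin gene Acp76A stood at 315, 236 and 369.6 CPM in control males and 365, 235 and 380.3 CPM in MSL2 males. Acp24A4, with a Kunitz-type inhibitor domain, stood at 188, 152 and 237 CPM in control males and 240.1, 174 and 248 CPM in MSL2 males. All 3 overlapped between the male groups and were called higher in males than in females of both genotypes. Acp76A had the smallest of the 3 differences between control males and control females, 6.98 ± 0.47 on the log2 scale (edgeR adjusted p = 7.77e-08), against 8.24 ± 0.36 for Acp62F (edgeR adjusted p = 1.33e-09) and 8.38 ± 0.37 for Acp24A4 (edgeR adjusted p = 1.22e-09).

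A run of 4 paralogs lies on 2R, in the order Acp53C14a, Acp53C14b, Acp53Ea and Acp53C14c. Per kb of exon, Acp53Ea and Acp53C14b had similar levels in control males, 652 ± 138 and 637 ± 126 CPM (SD, n = 3). Acp53C14a stood at 404 ± 73.3 CPM per kb and Acp53C14c at 66.7 ± 9.20 CPM per kb. The last gene of the run was thus below its neighbours by more than the spread between replicates. Other runs were as uneven. Sfp24Bb reached 565 ± 118 CPM per kb beside 72.9 ± 19.0 for Sfp24Ba and 40.1 ± 5.06 for Sfp24Bc. Sfp33A3 reached 252 ± 51.8 CPM per kb beside 24.3 ± 4.45 for Sfp33A2 and 24.7 ± 8.74 for Sfp33A4. Paralogs with near-identical stretches may share reads in these counts.

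Acp32CD is known from the secondary cells, a cell type at the tip of the gland. It stood at 128, 101 and 126 CPM in control males and 128, 100.1 and 131 CPM in MSL2 males, and it had the smallest adjusted p of the 46 genes between control males and control females (7.94 ± 0.19 on the log2 scale, edgeR adjusted p = 8.52e-12). Acp63F followed with 88.3, 71.7 and 100.1 CPM in control males and 97.8, 67.9 and 109 CPM in MSL2 males. The male groups overlapped for both. Acp98AB stood at 66.6, 50.3 and 90.1 CPM in control males and 63.6, 38.5 and 73.0 CPM in MSL2 males. It was matched to the annotation by its symbol alone and is given no level per length.

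Compared per kb of exon, the highest level in control males was that of Sfp87B, with 2306 ± 659 CPM per kb (SD, n = 3). Sfp60F followed at 1557 ± 425 CPM per kb and Acp95EF at 1536 ± 256 CPM per kb, which do not differ beyond their spread. Next came Acp62F at 881 ± 107 CPM per kb and Acp54A1 at 828 ± 434 CPM per kb, the latter with the highest coefficient of variation of the 44 genes, 52.4%. Below the paralogs Acp53Ea and Acp53C14b and below Sfp24Bb, Acp36DE stood at 495 ± 98.3 CPM per kb, so that its first place in counts goes with a long transcript. The lowest of the 45 genes with a length was Sfp38D at 6.11 ± 0.76 CPM per kb. The exons of Acp95EF lie wholly within those of Spase22-23 on the opposite strand, and reads of both cannot be told apart if counting ignored strand. The control female libraries held 64, 83 and 113 counts of Acp95EF, and any part of Spase22-23 in its values was not tested.

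**Figure D1:**
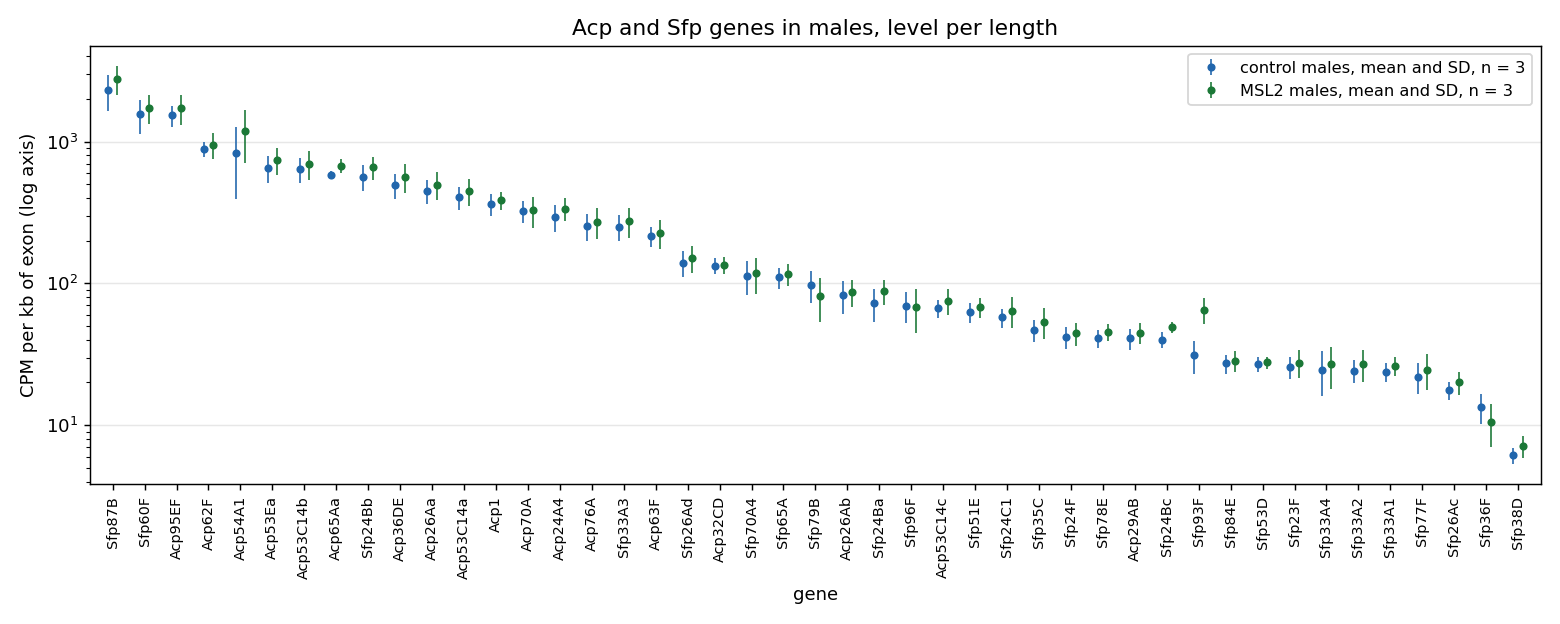
Mean level of the 45 Acp and Sfp genes with a known exon length in control males and MSL2 males, in CPM per kb of exon on a log axis, with the SD over 3 libraries. Sfp87B is highest at 2306 CPM per kb in control males and Sfp38D lowest at 6.11, and Sfp93F is the gene whose 2 points stand farthest apart relative to their error bars.

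Expression was concentrated in few genes. In control males the 4 most abundant of the 44 genes made up 46.9% of their summed CPM and the 10 most abundant 75.4%. The median gene stood at 37.8 CPM and the lowest, Sfp36F, at 3.39 ± 0.811 CPM (SD, n = 3). Together the 44 genes took 0.742%, 0.578% and 0.886% of all counts in the control male libraries and 0.935%, 0.609% and 0.937% in the MSL2 male libraries. In the 6 female libraries their share lay between 0.00237% and 0.00494%.

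The comparison of control males with control females asked how far these genes are restricted to males. All 44 seminal fluid genes were called higher in control males. Of all genes tested 71.9% were called in that comparison, and 34.4% of all genes tested were called higher. Their median difference was 8.26 on the log2 scale, or 307-fold, where the median over all genes was 0.01. Each of the 44 had its 3 male libraries above its 3 female libraries, and 37.3% of all genes did. In whole flies, fewer cells of a type and less RNA per cell cannot be told apart, and females lack the gland. MSL2 males against MSL2 females gave the same count, 44 of 44 higher, beside 31.5% of all genes tested, with a median of 8.23. The smallest differences between control males and control females were those of Sfp84E (3.37 ± 0.19, edgeR adjusted p = 1.31e-08) and Sfp53D (3.68 ± 0.44, edgeR adjusted p = 1.17e-05).

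**Figure D2:**
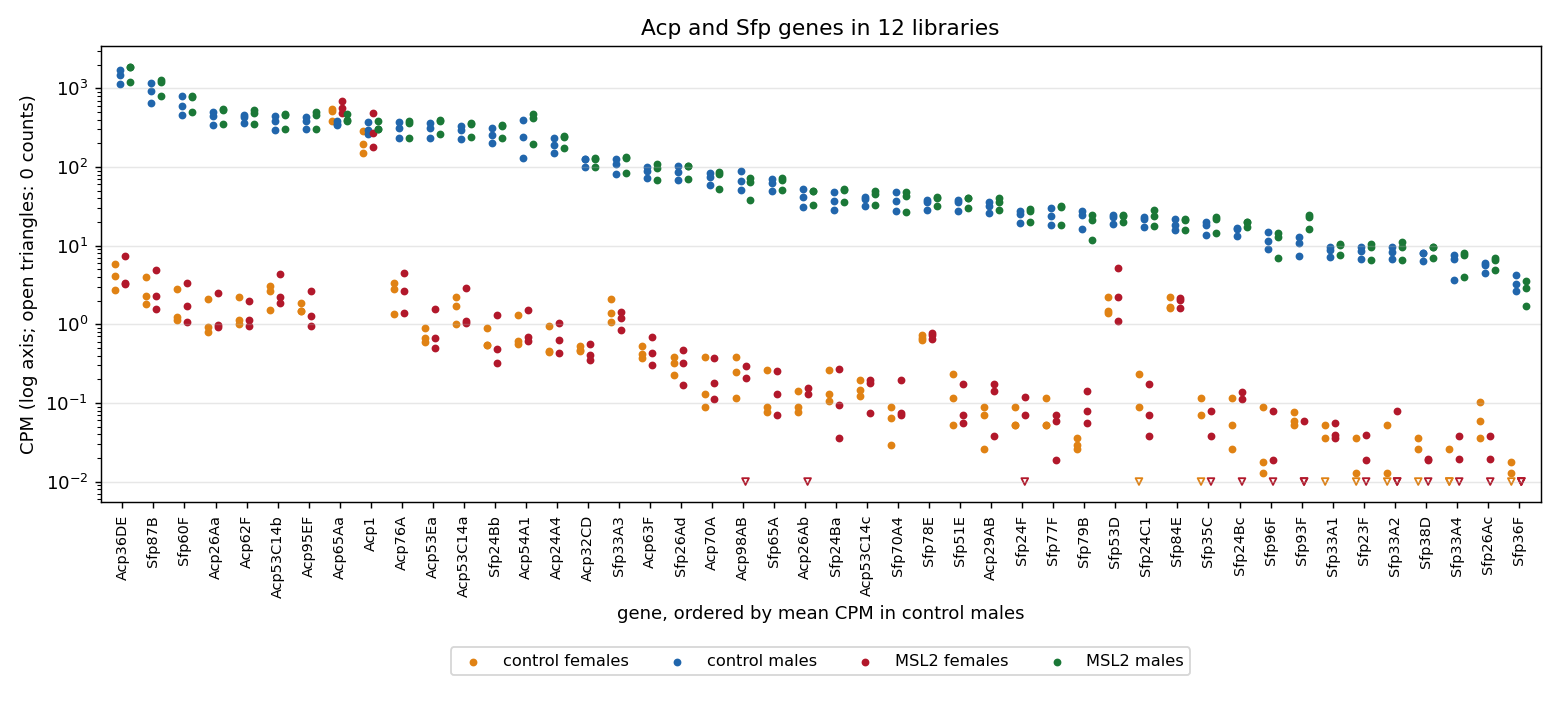
CPM of the 46 Acp and Sfp genes in each of the 12 libraries on a log axis, coloured by group, with genes ordered by their mean in control males and open triangles for 0 counts. For the 44 seminal fluid genes the male points lie above all female points. The smallest fitted folds are those of Sfp84E between the control groups (10.3-fold) and of Sfp53D between the MSL2 groups (7.82-fold). For Acp1 the sexes overlap. For Acp65Aa the male points lie slightly below the female points of the same genotype (1.34-fold in control and 1.39-fold in MSL2 flies).

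The cuticle genes behaved apart from the rest. Acp65Aa stood at 386, 554 and 515 CPM in control females and at 384, 355 and 344 CPM in control males, and it was called lower in males (-0.43 ± 0.15 on the log2 scale, edgeR adjusted p = 0.0277), as 37.6% of all genes tested were. This call was lost without any one of 4 libraries, control female 2 or 3 or control male 2 or 3, with an adjusted p of up to 0.0981. In MSL2 males against MSL2 females it was again lower (-0.47 ± 0.15, edgeR adjusted p = 0.0172), as were 38.5% of all genes tested. Acp1 stood at 149, 196 and 283 CPM in control females and 294, 373 and 265 CPM in control males, and was not called (0.57 ± 0.32, edgeR adjusted p = 0.14). Without control female 3 it was called higher in control males (0.85, edgeR adjusted p = 0.047).

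Other seminal fluid genes, which carry other names, were described alongside. Of 18 further seminal fluid symbols 16 distinct genes were matched, and all 16 were called higher in males of both genotypes, with medians of 8.22 and 8.27 on the log2 scale, beside the 34.4% and 31.5% of all genes given above. Dup99B and Anp, among the 16, are also on the list of the ejaculatory duct and bulb. Among the regulators of the gland, prd, which the gland needs in order to form, was called higher in control males (22.8 ± 1.97 CPM in control males and 0.321 ± 0.0495 in control females, SD, n = 3, edgeR adjusted p = 6.83e-12). The sex determination gene dsx and the Hox gene Abd-B, which acts in secondary cells, were called higher by 1.16 and 0.94 on the log2 scale (edgeR adjusted p = 2.34e-06 and 1.12e-05). The homeobox gene dve, also active in secondary cells, was not called (-0.03, edgeR adjusted p = 0.764). The receptor of sex peptide, SPR, was lower in control males than in control females, at 12.3 ± 1.69 against 36.6 ± 2.14 CPM (-1.58 on the log2 scale, edgeR adjusted p = 1.18e-07).

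Most of the 44 genes had a small but countable level in females. Expressed as a percent of the level in males of the same genotype, the median over the 44 genes was 0.309% in control females and 0.325% in MSL2 females, and 35 of the 44 lay under 0.5% in each. For Acp36DE the control females held 203, 233 and 209 counts, which at their unequal depths is 5.92, 4.11 and 2.70 CPM. Pooled over the group this was 0.263% of the male level, with a 95% counting interval of 0.243% to 0.284%. The interval leaves out the spread between these libraries. Testis genes, from an organ that females lack, had medians of 0.315% and 0.304% over 18 genes. The median of the seminal fluid genes in females was thus on the scale of that of the testis genes.

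The level in females followed the level in males from gene to gene. Over 40 of the genes, the log2 of CPM plus 0.1 in control females and control males correlated at 0.953 (Pearson), and in the MSL2 groups at 0.957. This describes genes within the same libraries, which are not independent, and leaves out the 4 genes described next, chosen after their values were seen. With them the values over all 44 were 0.845 and 0.836. The summed level of the 40 genes was 0.506%, 0.325% and 0.252% of the male mean in the 3 control female libraries, and that of the testis genes 0.589%, 0.348% and 0.406%. In the MSL2 female libraries the 40 genes stood at 0.255%, 0.225% and 0.555% and the testis genes at 0.361%, 0.385% and 0.494%. The female libraries highest in one were thus highest in the other within each group, and any part of a source of male transcripts common to both was not tested. In the other direction, yolk protein transcripts, which females make, summed in the male libraries to 0.297% to 0.563% of the mean of females of the same genotype. The 10 ovary genes summed to 1.01% to 1.73%, and their median gene stood at 0.321% to 0.711%. That sum holds grk, which stood at 23.6 CPM in control males against 42.9 in control females.

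The genes left out above are the 4 with a share over 1% in both genotypes. Sfp84E was measured at 2.22, 1.66 and 1.63 CPM in control females and 2.03, 2.17 and 1.60 CPM in MSL2 females, which is 9.40% (8.30% to 10.6%) and 9.64% (8.44% to 10.96%) of the male level. Sfp53D was measured at 1.49, 1.39 and 2.23 CPM in control females and 5.27, 2.20 and 1.09 CPM in MSL2 females, or 8.05% (7.13% to 9.06%) and 13.2% (11.9% to 14.6%). The first MSL2 female library was far above the other two for Sfp53D, while Sfp84E was even across all 6. Sfp78E, at 1.94% and 1.87% of the male level, and Sfp33A3, at 1.51% and 1.06%, followed. Acp76A, the serpin gene, stood at 0.729% (0.657% to 0.806%) and 0.937% (0.848% to 1.03%). Sfp26Ac stood at 1.30% in control females (0.670% to 2.29%) and at 0.362% in MSL2 females (0.0746% to 1.06%), and these intervals overlap. In the later annotation Sfp84E shares 27 exonic bases with Os-C and Sfp78E shares 134 with CG11248, both on the opposite strand. No overlapping gene was found for Sfp53D or Sfp33A3.

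At the low end, Sfp79B had 1, 2 and 2 counts in control females, or 0.129% of the male level (0.0419% to 0.302%). Sfp93F had 3 counts over the MSL2 females, or 0.104% (0.0215% to 0.305%). Sfp36F had no count in any MSL2 female library against 406 counts in MSL2 males, so that it was at least 40.2-fold higher in males, taking 3 counts per library, or 9 over the group, as the floor. With Sfp36F at that bound, the median log2 difference between MSL2 males and MSL2 females over the 44 genes was 8.22. Such genes rest on so few counts that their order at the low end was not detectable at this depth.

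**Figure D3:**
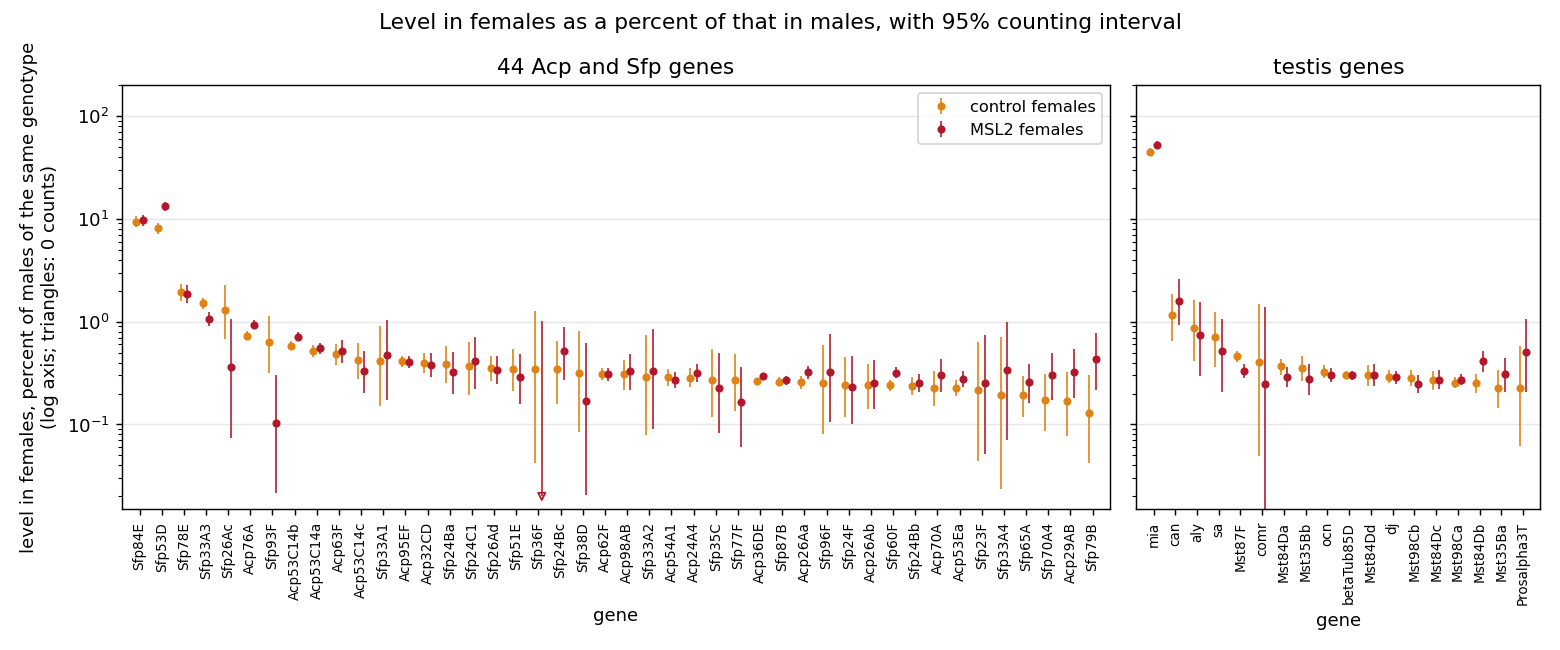
Level of each of the 44 seminal fluid genes (left) and of 18 testis genes (right) in females as a percent of the level in males of the same genotype, on a log axis with 95% counting intervals, for control and MSL2 females. Most genes of both panels lie near 0.3%, with Sfp84E (9.40% in control and 9.64% in MSL2 females) and Sfp53D (8.05% and 13.2%) highest on the left and mia (44.98% and 51.9%) highest on the right.

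Among the 6 male libraries the 44 genes moved as a block. The second replicate was the lowest in each male group, with all 44 genes below the mean of the other replicates in both. The median gene there stood at 0.725 times the other replicates in control males and at 0.665 times in MSL2 males, where the median over all genes was 0.978 and 0.982 times. The other 16 seminal fluid genes were low in the same libraries, at 0.724 and 0.679 times, as were 6 genes of the ejaculatory duct and bulb, of which Dup99B and Anp are on both lists, at 0.658 and 0.631 times. Testis genes were less affected, at 0.894 and 0.947 times, and adult cuticle genes stood at 1.03 and 1.01 times. Yolk protein transcripts were higher there, at 2.06 and 1.55 times the other replicates, and their part in these values was not tested. The median coefficient of variation of the 44 genes was 18.6% in control males and 22.2% in MSL2 males.

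**Figure D4:**
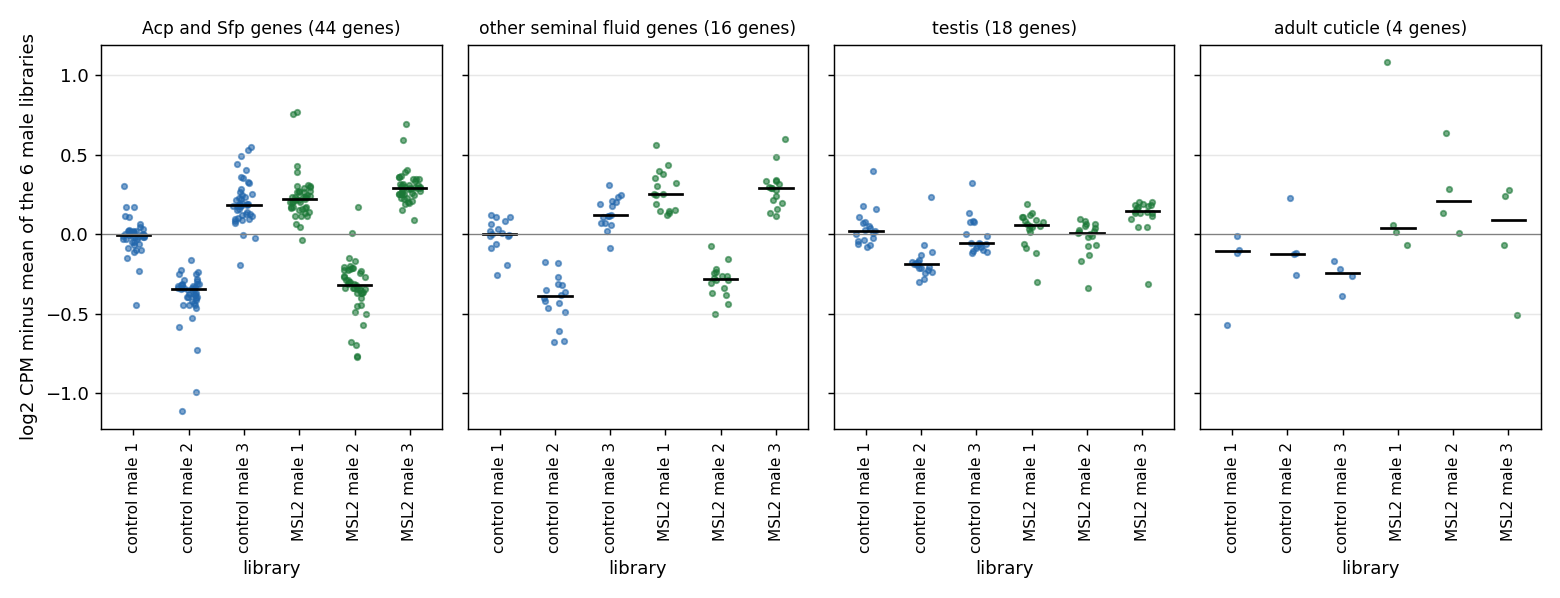
log2 CPM of each gene in the 6 male libraries minus its mean over them, for the 44 seminal fluid genes, 16 other seminal fluid genes, 18 testis genes and 4 adult cuticle genes, with a black bar at the median. The seminal fluid genes of both lists lie lowest in control male 2 and MSL2 male 2, where the 44 genes stand at 0.725 and 0.665 times the other replicates of their group.

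The comparison of MSL2 males with control males asked whether additional MSL2 alters these genes in the sex that already makes it. edgeR called none of the 46 genes, beside 0.812% of all genes tested. The unadjusted p was under 0.05 for 1 gene, Sfp93F, beside 7.89% of all genes tested, and the only gene DESeq2 called was the same. The estimates lay above 0 for 42 of the 46 genes, against 50.8% of all genes tested, with a median of 0.14 on the log2 scale. That median was 0.01, with 26 of 46 above 0, without control male 2, and 0.30 without MSL2 male 2. Without the second replicate of both groups it was 0.16, with 43 of 46 above 0. The genes move together between libraries, so the count of estimates above 0 is not a count of independent values.

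The relative levels of the 44 genes were nearly the same in both male groups. The mean log2 CPM of the groups correlated at 0.996 over the genes (Pearson). To set aside the common shift of a library, each gene was divided by the geometric mean of the 44 genes in the same library, a measure chosen after the values were seen. The log2 differences on this scale must cancel over the 44 genes, so some are negative whatever the genes do. On that scale 33 of 44 genes differed by less than 0.1 log2 between the group means. In 9 of 44 the groups did not overlap on that scale. On the scale of CPM 2 of the 44 did not overlap, where 23.2% of all genes did not. No share over all genes is given for the relative scale, since the division removes the library shift of the 44 genes alone. Of the 9 on the relative scale, the 4 above were Sfp93F, Sfp24Ba, Acp53Ea and Acp36DE, and the 5 below were Sfp36F, Sfp79B, Acp98AB, Acp70A and Acp76A. Chromosome 3, for which control males carried the balancer TM3, held 5 of these 9 among its 15 genes, 1 above and 4 below. Chromosome 2 held 4 among its 29, 3 above and 1 below. No share over all genes of each chromosome is given, and the split was not tested. The sources used here do not say which chromosomes 3 the MSL2 males had, so transgene and balancer cannot be told apart.

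Sfp93F, on 3R, differed most. It had 573, 315 and 599 counts in the control male libraries and 1266, 761 and 1206 in the MSL2 male libraries, or 10.7, 7.31 and 12.7 CPM against 24.8, 16.4 and 23.5 CPM. All 3 MSL2 male libraries lay above all 3 control male libraries. The log2 difference was 1.07 ± 0.24 with an unadjusted p of 0.000944, and edgeR's adjusted p of 0.0817 missed the threshold of 0.05. DESeq2 gave an adjusted p of 0.00236, and with each library left out in turn edgeR's adjusted p lay between 0.0917 and 0.354. Relative to the 44 genes of the same library, Sfp93F stood at 0.191, 0.171 and 0.196 in control males and at 0.373, 0.367 and 0.339 in MSL2 males, a ratio of 1.94. These values varied little within a group, and the low second libraries no longer stood apart.

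Smaller relative differences went the other way, as some must when each gene is divided by the mean of its own set. Sfp36F stood at 0.0590, 0.0613 and 0.0653 of the geometric mean in control males and at 0.0431, 0.0386 and 0.0506 in MSL2 males, a ratio of 0.709. For Sfp79B the ratio was 0.749 and for Acp98AB 0.766. The CPM of these 3 genes overlapped between the groups, and none had an unadjusted p under 0.05 in edgeR. Their CPM estimates were negative too, at -0.33 ± 0.27, -0.25 ± 0.25 and -0.24 ± 0.30 on the log2 scale. Sex peptide, Acp70A, stood at 1.32, 1.38 and 1.31 of the geometric mean in control males and 1.22, 1.17 and 1.25 in MSL2 males, a ratio of 0.908. Its CPM differed by 0.01 ± 0.25 on the log2 scale (edgeR adjusted p = 0.999). That of Acp76A, also below on the relative scale, differed by 0.09 ± 0.35 (edgeR adjusted p = 0.999). The relative differences of Acp70A and Acp76A thus do not have the sign of their CPM estimates.

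Beside Sfp93F, the CPM of a pair of genes did not overlap between the male groups. Sfp24Bc stood at 16.4, 13.2 and 16.8 CPM in control males and 19.8, 17.1 and 20.0 CPM in MSL2 males (0.29 ± 0.20, edgeR adjusted p = 0.950). The cuticle gene Acp65Aa stood at 384, 355 and 344 against 391, 389.6 and 470.0 CPM (0.21 ± 0.15, edgeR adjusted p = 0.980). Such separation was seen in 23.2% of all genes tested. Acp54A1 had the next largest estimate after Sfp93F, 0.52 ± 0.43 (edgeR adjusted p = 0.999), with 238, 129 and 393 CPM in control males and 472, 197 and 419.8 CPM in MSL2 males. Among genes of the other lists, Gld, a glucose dehydrogenase of the ejaculatory duct, stood at 72.1 ± 19.8 CPM in control males and 132 ± 33.8 in MSL2 males (0.87 on the log2 scale, edgeR adjusted p = 0.108). Dup99B, a duct peptide related to sex peptide, stood at 205 ± 40.8 and 332 ± 88.7 CPM (0.69, edgeR adjusted p = 0.493). The testis gene Mst84Db was lower, at 215 ± 12.2 CPM in control males and 138 ± 1.83 in MSL2 males (-0.64, edgeR adjusted p = 0.404). The median of the 18 testis genes was 0.14 on the log2 scale. None of the 16 other seminal fluid genes, 18 testis genes and 4 gland regulators was called.

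**Figure D5:**
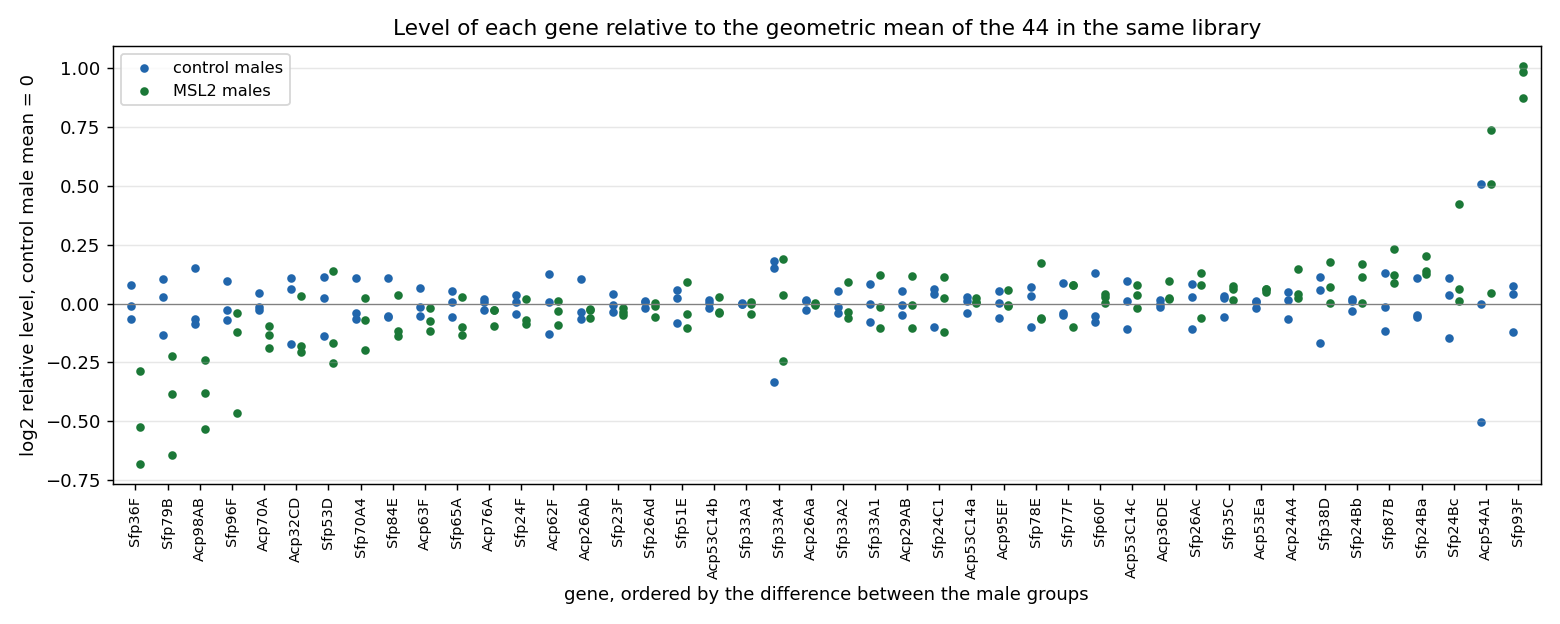
log2 level of each of the 44 genes relative to the geometric mean of the 44 in the same library, with the control male mean set to 0, for the 3 control male and 3 MSL2 male libraries. The MSL2 male points of Sfp93F lie apart at a ratio of 1.94, those of Sfp36F, Sfp79B and Acp98AB lie lowest, and 33 of 44 genes differ by less than 0.1 log2 between group means.

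Setting MSL2 females against control females asked whether these genes are higher in females that carry the construct. Control females carried TM3 and MSL2 females did not, so transgene and balancer cannot be told apart here either. edgeR called none of the 46 genes, beside 10.3% of all genes tested, and DESeq2 called none. An unadjusted p under 0.05 was found for none of them, beside 30% of all genes. Estimates lay above 0 for 33 genes (49% of all genes) and below 0 for 13, with a median of 0.21 on the log2 scale. Only 23 of the 46 genes pass the filter on low counts in a fit of the female libraries alone. There too none was called, with 19 estimates above 0, 4 below and a median of 0.16. Without MSL2 female 3, the MSL2 female library highest in the 40 genes and in testis transcripts, the median was -0.32 with 11 genes above 0. Sex peptide had 28 counts over the control females and 30 over the MSL2 females. Ovulin had 189 and 204, and Acp36DE 645 and 651. These sums are not scaled to depth, which differed between the groups. The scaled estimates were 0.41 ± 0.66, 0.32 ± 0.45 and 0.18 ± 0.36 on the log2 scale, higher in MSL2 females but within their SE. The summed share of the 44 genes was 0.00313% ± 0.000968 of all counts in control females and 0.00340% ± 0.00134 in MSL2 females (SD, n = 3), which differed by less than the spread between replicates.

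Single genes in females rested on few counts. Sfp53D had 51, 79 and 172 counts in control females and 281, 62 and 56 in MSL2 females (0.74 ± 0.44 on the log2 scale, edgeR adjusted p = 0.276). Without MSL2 female 3 it was called higher (1.15, edgeR adjusted p = 0.0311), and without MSL2 female 1 the estimate was -0.17. MSL2 female 1, which held the 281 counts, was low in transcripts of the ovary, with a sum of 1184 CPM over 10 genes against 3020.1 and 3981 in the other MSL2 females. Its yolk protein transcripts summed to 8704 CPM against 10268 and 13243, and the part of these differences in the estimate was not tested. Sfp26Ac had 2, 2 and 8 counts in control females and 2, 0 and 1 in MSL2 females (-1.55 ± 0.72, edgeR adjusted p = 0.178). Sfp79B, with 1, 2 and 2 against 3, 4 and 4 counts, was the gene of the 46 whose CPM did not overlap between the female groups (1.41 ± 0.99, edgeR adjusted p = 0.357), as in 26.6% of all genes tested. Of the 16 other seminal fluid genes, CG30488 was called higher in MSL2 females, at 1.11 ± 0.0619 against 0.595 ± 0.166 CPM (0.90 on the log2 scale, edgeR adjusted p = 0.0384). In males it stood at 24.4 ± 3.79 CPM with the construct and 23.5 ± 3.88 without. The gland regulators prd, dsx, Abd-B and dve were not called in MSL2 females, and prd stood at 0.310 ± 0.0397 CPM there.

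MSL2 females were also set against control males, which share the control male libraries with the comparisons above. All 44 seminal fluid genes were called lower in MSL2 females, beside 31.3% of all genes tested, with a median of -8.08 on the log2 scale. Acp65Aa was higher in MSL2 females (0.68, edgeR adjusted p = 0.00203), as were 38.6% of all genes tested, and Acp1 was not called. Over the alternatives, DESeq2 among them, the adjusted p of Acp65Aa lay between 0.000307 and 0.00949. Last, the genotype effect (MSL2 against control flies) in males was tested against that in females for each gene. It has the same limit, since construct and balancer differ together between the female groups. None of the 46 genes was called by edgeR, beside 1.26% of all genes tested, and DESeq2 called none. Unadjusted p values under 0.05, which 12.8% of all genes had, were found for Sfp93F (2.51 ± 1.03 on the log2 scale, unadjusted p = 0.0340, edgeR adjusted p = 0.338) and Sfp26Ac (1.74 ± 0.75, unadjusted p = 0.0408, edgeR adjusted p = 0.362), where the female groups hold 11 and 3 counts of Sfp93F and 12 and 3 of Sfp26Ac.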

How the data were processed

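Whole-fly RNA of 12 libraries was deposited as read counts per RefSeq transcript, in 1 table for autosomal and 1 for X-linked genes, per the file headers. The tables also hold a fraction per library, which the authors computed by dividing each count by its column total within the same table. The fractions were only checked against the counts (largest difference 5.00e-10). Per the submitters' processing notes, TopHat, HTSeq and the build dm3 were used, without stated versions. The sources used here do not give the counting mode, the handling of strand or the annotation, so overlapping and antisense genes may share reads. Exon lengths, arms, overlaps and gene order came from a later annotation (BDGP6), so no coordinates are given. 45 of the 46 genes were matched to it by accession and 1 by symbol.

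Per gene, the transcript with the most counts was kept. edgeR 4.0.16 in R 4.3.3 was used with TMM factors, filterByExpr with a minimum count of 10, 4 group means over all 12 libraries, the quasi-likelihood F test and Benjamini-Hochberg adjustment over all 13060 genes, with a threshold of 0.05. CPM are the deposited counts scaled to library size with the TMM factors. The SE of a log2 difference was taken as its absolute value over the square root of the edgeR F statistic. For genes with few female counts, such as Sfp33A4, it can be smaller than the counting error. Intervals of female percentages are exact 95% intervals of summed counts. The p-values measure the spread between 3 biological replicates, which the labels do not tie to separate cultures or batches. This spread is estimated per gene over all 4 groups together. Between the male groups it thus also holds the spread of the female libraries, and a gene not called can still differ beyond the spread of the males. With edgeR on the male libraries alone, 131 of 12861 genes were called higher and 156 lower in MSL2 males, and none of the members was called. DESeq2 1.42.0, RLE factors, no filter, another transcript per gene, fits of the groups compared alone, a replicate block, leaving out the cuticle genes and leaving out each library were tried. The edgeR steps were tested on simulated data.

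The members, gene lists and tests were chosen with earlier results of these data known. Named genes were those with a known role, the 10 highest per length in control males, any called between genotypes, those not called higher in control males, the cuticle genes and the extremes in females. Genes outside that rule (Sfp24Bc, Sfp33A3, Sfp26Ac, Sfp78E, Sfp93F, Acp53C14a, Acp53C14c and others of their runs) were named after their values were seen.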

Additional observations from a re-analysis of the deposited data

How the results depend on the processing

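Of 858 alternative values of 69 results, 831 were taken as unchanged. For single genes this meant the same direction and call, and for counts of genes called an equal or similar count. For medians it meant a move below the spread between libraries (SD 0.32 log2), which exceeds the median of 0.14 between the male groups. Most of the values are single genes between control males and control females, where nearly all differences are large. The counts of genes called were 44 or 45 for the comparisons between sexes under every alternative tried, and 44 of the 44 seminal fluid genes without the cuticle genes. For MSL2 males against control males the count was 1 with DESeq2 (Sfp93F) and 0 otherwise. For MSL2 females against control females it was between 0 and 1 when a library was left out, with Sfp53D called without MSL2 female 3. No gene was called for the difference of the genotype effect under any of 18 alternatives. Acp65Aa lost its call in control males against control females with the lowest-count transcript (adjusted p = 0.0765), under the replicate block (0.0502) and without some libraries, and in MSL2 males against MSL2 females with only the groups compared (0.0649) and without MSL2 female 1 (0.0646). Acp1, not called, turned from 0.09 to between -0.18 and 0.55 in MSL2 males against MSL2 females when a library was left out. In MSL2 females against control males its estimate fell to -0.10 with DESeq2 and with RLE factors, -0.0667 with another transcript, -0.0677 with only the groups compared, -0.0109 with the replicate block and between -0.45 and 0.28 without a library. Sfp53D ranged from -0.17 to 1.15 between the female groups. The cause was not tested.

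The labels do not say whether the replicate numbers pair the samples, and the main fit treats them as unpaired. Over all genes, same-numbered control and MSL2 males had deviations that correlated at -0.28, 0.60 and 0.18. Over the 46 members alone they correlated at 0.21, 0.87 and 0.59. A batch shared by same-numbered libraries was not tested. With the replicate block, 44, 45, 0, 0, 45 and 0 members were called in the 6 comparisons, in the order control males against control females, MSL2 males against MSL2 females, MSL2 males against control males, MSL2 females against control females, MSL2 females against control males and the difference of effects. Over all genes the block lowered the calls between MSL2 and control females from 865 higher and 479 lower to 455 and 214, and between the male groups from 46 and 60 to 26 and 25. Leaving out the second replicate of both male groups was chosen after seeing the data.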
